A study of Rattus norvegicus with 52 samples.

Results

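The response of mammary luminal cells to estradiol (E2) was measured in 6 of the 52 libraries of the series, chosen by their labels as the luminal libraries of the E2 experiment. They comprise 3 E2 libraries, 2 from ACI rats and 1 from BN rats, and 3 Control libraries, 2 from ACI rats and 1 from BN rats. All rats were female. ACI is an inbred strain that develops mammary tumors under estrogen, and BN is a strain that resists them. Rats of 9 weeks were given silastic implants that held E2 and released it over 3 weeks, or empty implants as Control. No genotype is given in the labels of these libraries, and no deletion or transgene is named for them. Cells were sorted by flow cytometry, and luminal cells are those with Cd24 and low Cd29. The sort was described for the other rats of the study. The labels call these libraries luminal, and their titles also carry CD49b and PNA, which mark luminal progenitors, without saying how they were gated. The titles of the BN libraries carry 2 numbers each and those of the ACI libraries 1, without saying what the numbers mean, so that p-values measure only the spread between these libraries.

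Estradiol binds estrogen receptor alpha in the hormone-sensing subset of luminal cells, which then signal to their neighbors through secreted factors such as amphiregulin, Wnt4 and Rankl. Most luminal cells lack the receptor, among them the progenitors that give rise to milk-secreting alveolar cells. Estradiol also makes the pituitary release prolactin, which switches on milk protein genes in alveolar cells through the kinase Jak2 and the transcription factor Stat5.

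Depth ranged from 13659389 to 25280421 reads on genes. Levels are given as counts scaled to library size (CPM, with TMM factors), and a log2 difference is E2 minus Control in mean log2 CPM with strain as a term. Summed levels of a list are in CPM without TMM factors. The defining luminal markers were present, with *Krt8* between 2464 and 10070 CPM and *Epcam* between 1191 and 4557 CPM. The 13 luminal markers tested summed to 27330, 31900 and 27790 CPM in the 2 ACI and the BN Control library. They summed to 16510, 24640 and 26670 CPM in E2, so that every E2 sum lay below every Control sum. Gene by gene, 10 of 13 had a negative log2 difference (57.2% of all genes). In all E2 libraries 1 of 13 lay below Control and 1 above. In ACI 6 of 13 had both E2 libraries below both Control libraries (26.3% of all genes). The first ACI E2 library stood apart. It had the lowest depth, its Spearman correlations with the other 5 libraries over genes were 0.672 to 0.699, and 3724 of 12670 tested genes had no counts in it, against 719 to 2798 in the others. Its summed level of the fibroblast markers counted (11 of 12 listed) was 8412 CPM, against 54.1 to 1167 CPM in Control and 116 and 304 CPM in the other E2 libraries. Its adipocyte markers (10 of 11 listed were counted) summed to 958 CPM, against 34.9 to 84.9 CPM in the other 5. Basal markers (14 tested) summed to 372 and 844 CPM in ACI Control, 726 and 2211 CPM in ACI E2, 2714 CPM in BN Control and 505 CPM in BN E2, and so were higher with E2 in ACI on average and lower in BN. Endothelial, myeloid, lymphoid, erythroid and Schwann cell markers reached at most 511, 603, 47.8, 37.6 and 1491 CPM. The part of these other cells in the results below was not tested. The BN Control library had 2798 tested genes without counts, among them *Esr1*, *Pgr* and *Prlr*.

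E2 and Control libraries were set against each other to find which luminal genes respond to the hormone. Of 12670 genes tested, 0 (0%) passed an adjusted p of 0.05 (edgeR, quasi-likelihood, Benjamini-Hochberg). Unadjusted p lay under 0.05 in 437 (3.45%), of which 195 (1.54%) were higher and 242 (1.91%) lower with E2. DESeq2's Wald test called 131 of 11687 genes (1.12%), 85 higher and 46 lower, and limma-voom with library quality weights called 0, with 849 at an unadjusted p under 0.05. A DESeq2 call can rest on 1 library. The erythroid marker *Ahsp* was called (DESeq2 adjusted p = 7.75e-06) with 204 counts in the first ACI E2 library and 0 in every other. The spread between libraries was wide, with a common dispersion (squared coefficient of variation) of 1.44. In 599 genes (4.73%) all 3 E2 libraries lay above all 3 Control libraries, and in 748 (5.9%) all lay below. The median log2 difference of all genes was -0.21, against which the lists below should be read.

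Milk protein genes had, on average, their highest levels in the second ACI and the BN E2 library. *Csn2*, which encodes beta-casein, had 260, 814 and 38.7 CPM in the 2 ACI and the BN Control library, and 4117, 50330 and 31940 CPM in the 2 ACI and the BN E2 library. Every E2 library lay above every Control library, and the log2 difference was 6.54 ± 1.84 (SE, n = 3 and 3; adjusted p = 0.999 by edgeR's quasi-likelihood test, 1.16e-06 by DESeq2). The same separation was found in *Csn1s2a*, an alpha-S2-like casein, with 3.7, 19.7 and 0 CPM in Control and 80.6, 3367 and 1186 CPM in E2. *Glycam1*, a mucin-like milk protein, had 72.4, 328 and 0 CPM in Control and 2563, 11820 and 716 CPM in E2. *Wap*, the whey acidic protein, had 48.2, 25.8 and 10.2 CPM in Control and 29.3, 715 and 295 CPM in E2. Here the first ACI E2 library lay within the Control range. These 4 genes were the members of the list that DESeq2 called, with adjusted p up to 0.03.

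The promoters of these 4 genes are shown because casein and whey protein genes are known targets of prolactin signaling. They come from RefSeq (GRCr8), from 250 bases before the gene's start to 50 after it, written 5′ to 3′ on the gene's strand. Capitals mark TTCNNNGAA, the core of the site that Stat5 binds, which reads alike on both strands.
*Csn2* promoter (chr14:20601574-20601873, plus strand): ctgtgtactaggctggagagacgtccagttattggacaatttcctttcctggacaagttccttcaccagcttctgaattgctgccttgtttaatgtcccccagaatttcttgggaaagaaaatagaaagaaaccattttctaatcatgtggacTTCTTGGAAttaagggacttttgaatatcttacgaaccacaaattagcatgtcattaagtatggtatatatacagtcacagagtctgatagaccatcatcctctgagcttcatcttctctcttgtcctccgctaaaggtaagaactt
*Csn1s2a* promoter (chr14:20574422-20574721, minus strand): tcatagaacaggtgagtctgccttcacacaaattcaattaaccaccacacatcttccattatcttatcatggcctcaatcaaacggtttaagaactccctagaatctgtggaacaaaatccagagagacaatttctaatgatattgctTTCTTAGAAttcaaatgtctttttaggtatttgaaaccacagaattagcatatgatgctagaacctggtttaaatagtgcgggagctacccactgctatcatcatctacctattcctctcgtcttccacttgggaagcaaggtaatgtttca
*Glycam1* promoter (chr7:136561250-136561549, minus strand): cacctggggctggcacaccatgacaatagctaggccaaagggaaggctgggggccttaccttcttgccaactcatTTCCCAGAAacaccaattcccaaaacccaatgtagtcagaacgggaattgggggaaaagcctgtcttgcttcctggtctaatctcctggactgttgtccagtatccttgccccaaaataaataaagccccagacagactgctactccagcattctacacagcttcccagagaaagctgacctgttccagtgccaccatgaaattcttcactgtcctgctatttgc
*Wap* promoter (chr14:85719110-85719409, minus strand): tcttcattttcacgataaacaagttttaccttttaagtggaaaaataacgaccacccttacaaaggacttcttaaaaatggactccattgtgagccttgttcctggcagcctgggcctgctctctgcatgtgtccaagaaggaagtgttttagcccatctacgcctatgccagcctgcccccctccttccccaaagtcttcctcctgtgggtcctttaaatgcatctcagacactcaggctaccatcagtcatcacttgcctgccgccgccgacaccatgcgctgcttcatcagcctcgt
The motif began 97 bases before the start of *Csn2*, 102 before that of *Csn1s2a* and 175 before that of *Glycam1*, and the *Wap* window held no match. It was found in 5 of the 14 milk genes with a promoter in the reference (*Csn1s1*, *Csn1s2a*, *Csn1s2b*, *Csn2* and *Glycam1*), and in 8.68% of all 27457 promoters. The core of the estrogen response element, GGTCA facing its reverse complement across NNN, was in none of these 14 windows and in 0.0255% of all promoters. It was also in none of the 25 estrogen response genes with a promoter in the reference. A motif this rare would be missing from nearly any set of this size, so nothing can be read from its absence. A match is a description of the letters and not a measured binding site.

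Of all 16 milk genes tested, 14 had a positive log2 difference (42.8% of all genes), with a median of 1.14. The 2 others were *Lalba* and *Btn1a1*, which had 0 and 0.0515 CPM in the first ACI E2 library. *Lalba*, the regulatory subunit of lactose synthase, had 1155, 504 and 1044 CPM in Control and 0, 560 and 6165 CPM in E2. The mean over the 16 genes was 7.17, 7.07 and 5.77 log2 CPM in the 2 ACI and the BN Control library and 6.08, 10.1 and 10.4 log2 CPM in E2, so that the first ACI E2 library lay below both ACI Control libraries. In 3 of the 16 genes all E2 libraries lay above all Control libraries (4.73% of all genes), and in ACI both E2 libraries lay above both Control libraries in 4 of 16 (15.3% of all genes). Without the first ACI E2 library, both remaining E2 libraries lay above all Control libraries of both strains in 11 of 16 (11.7% of all genes). The median was then 2.11. In the BN pair, with 1 library each, all 16 genes were higher with E2, against 51.5% of all genes. Together the 16 genes took 0.755% to 1.1% of counted reads in Control and 1.45%, 10.2% and 7.57% in E2. In basal cells the median of the list was 3.565, above the luminal median of 1.14, so the rise is not particular to the luminal libraries. In bulk samples more milk-producing cells and more milk RNA per cell cannot be told apart.

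**Figure D1:**
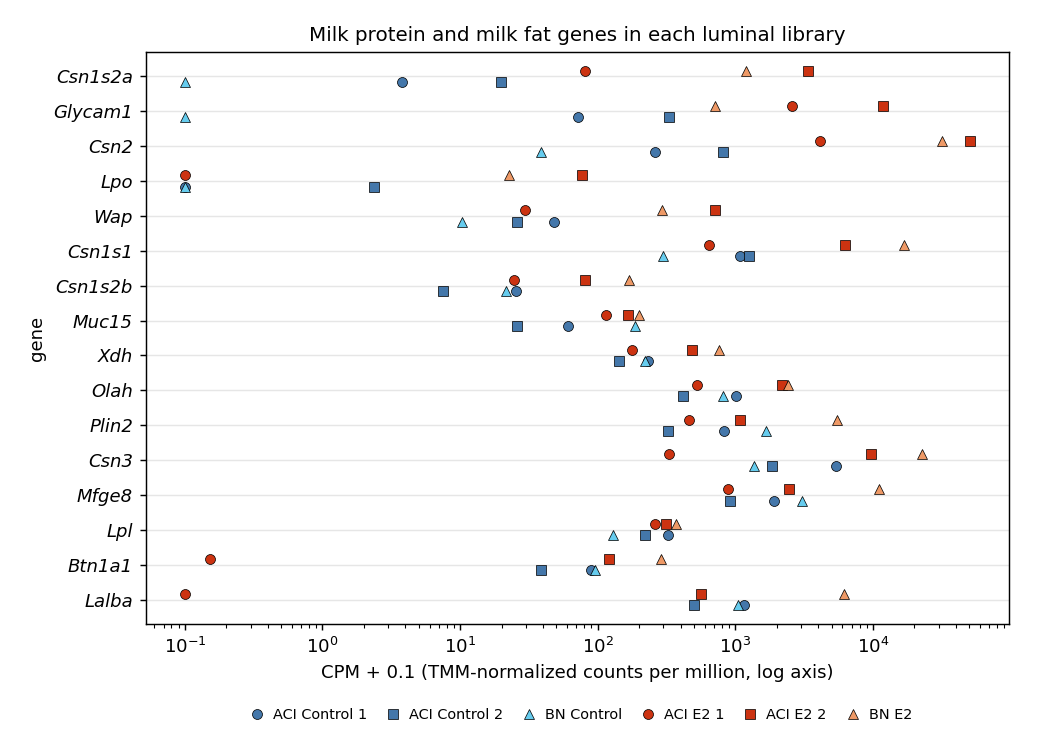
Levels of the 16 milk genes in each luminal library, in CPM + 0.1 on a log axis, ordered by log2 difference; blue marks Control and red or orange E2, circles and squares the 2 ACI libraries and triangles BN. The ACI square and the BN triangle of E2 lie right of Control in most rows, and the circle of the first ACI E2 library lies among Control for genes such as *Wap* and *Csn1s1*.

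Of the genes higher in all 3 E2 libraries and in the same direction in both strains, the 12 with the lowest p and a mean log2 CPM above 2 were *Hsd11b2*, *Mecom*, *Gsta1*, *Ltbp2*, *Itga8*, *Fads1*, *Fabp3*, *Cat*, *Plppr4*, *Car2*, *Gga2* and *Ahr*. They were chosen by these values, which are therefore a description. *Hsd11b2*, which inactivates glucocorticoids, had 1.03, 1.55 and 0 CPM in the 2 ACI and the BN Control library and 168, 123 and 5.36 CPM in E2. Its log2 difference was 6.44 ± 0.33 (SE, n = 3 and 3; edgeR adjusted p = 0.509, DESeq2 adjusted p = 1.19e-16). Both ACI E2 libraries lay far above the BN E2 library. The same order was seen in *Mecom*, a zinc finger transcription factor, with 0.272, 0.125 and 0 CPM in Control and 101, 67.9 and 1.52 CPM in E2. *Plppr4*, a membrane protein related to lipid phosphatases, had no counts in any Control library and 63.1, 21.4 and 5.78 CPM in E2, at least 619-fold higher with a floor of 3 counts over the Control group.

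*Fabp3*, a fatty acid binding protein of secretory mammary cells, had 1.63, 6.73 and 0 CPM in Control and 155, 713 and 69 CPM in E2. *Fads1*, the delta-5 fatty acid desaturase, had 61.5, 43.6 and 64.2 CPM in Control and 205, 239 and 270.2 CPM in E2, a log2 difference of 2.09 ± 0.18 (SE, n = 3 and 3; edgeR adjusted p = 0.917). The *Fads1* groups were tight and did not overlap. *Gsta1*, a glutathione transferase, had 4.19, 5.23 and 4.17 CPM in Control and 58.6, 201 and 71 CPM in E2. *Cat*, which encodes catalase, had 71.3, 65.2 and 122 CPM in Control and 256, 284 and 318 CPM in E2. The *Ahr* transcript, for the aryl hydrocarbon receptor, was 55.8 to 73.9 CPM in Control and 151 to 225 CPM in E2. In *Ltbp2*, *Itga8*, *Car2* and *Gga2*, the rest of the 12, log2 differences were 2.01 to 3.24 in ACI and 1.91 to 3.03 in BN.

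The 12 genes lower in all 3 E2 libraries by the same rule were *Fgfr2*, *Abcc8*, *Tifa*, *Nr1d1*, *Klf9*, *Nfkbib*, *Klf2*, *Creb3l4*, *Rbm7*, *Slc1a5*, *Bmp3* and *Slbp*. *Fgfr2*, the fibroblast growth factor receptor needed for branching of the mammary epithelium, had 470.3, 299 and 100.3 CPM in the 2 ACI and the BN Control library and 4.32, 15.3 and 5.62 CPM in E2. Its log2 difference was -5.05 ± 0.74 (SE, n = 3 and 3; edgeR adjusted p = 0.682, DESeq2 adjusted p = 8.88e-10), and it was -5.51 in ACI and -4.14 in BN. The lowest Control library lay well above the highest E2 library. *Bmp3*, a secreted member of the bone morphogenetic protein family, had 62.9, 66.5 and 15.8 CPM in Control and 1.7, 0.258 and 1.63 CPM in E2. *Abcc8*, a subunit of the potassium channel that sulfonylureas bind, had 108 and 78 CPM in the ACI Control libraries and 1 count in the BN Control library. It had no counts in any E2 library, at least 1330-fold lower at a floor of 3 counts over the E2 group, and this rests on ACI alone.

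*Klf9*, a zinc finger factor induced by glucocorticoids, had 857, 850.1 and 1069 CPM in Control and 252, 196 and 295 CPM in E2, a log2 difference of -1.91 ± 0.12 (SE, n = 3 and 3; edgeR adjusted p = 0.982). The groups did not come near each other. *Nr1d1*, which encodes the clock repressor Rev-erb alpha, had 651, 584 and 415 CPM in Control and 156, 199 and 85.5 CPM in E2. *Klf2*, a relative of *Klf9*, had 678 to 1038 CPM in Control and 182 to 382 CPM in E2. *Tifa*, an adaptor upstream of NF-kB, had 194, 242 and 50.5 CPM in Control and 16.3, 35.2 and 2.63 CPM in E2. The NF-kB inhibitor *Nfkbib* lay between 287 and 336 CPM in Control and between 89.2 and 142 CPM in E2. In the other 4 genes (*Creb3l4*, *Rbm7*, *Slc1a5* and *Slbp*), log2 differences were -3.90 to -1.52. DESeq2 called all 24 genes named in both directions, and edgeR's adjusted p lay between 0.509 and 0.999. In ACI alone the edgeR adjusted p of these genes was 0.558 to 0.566.

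**Figure D2:**
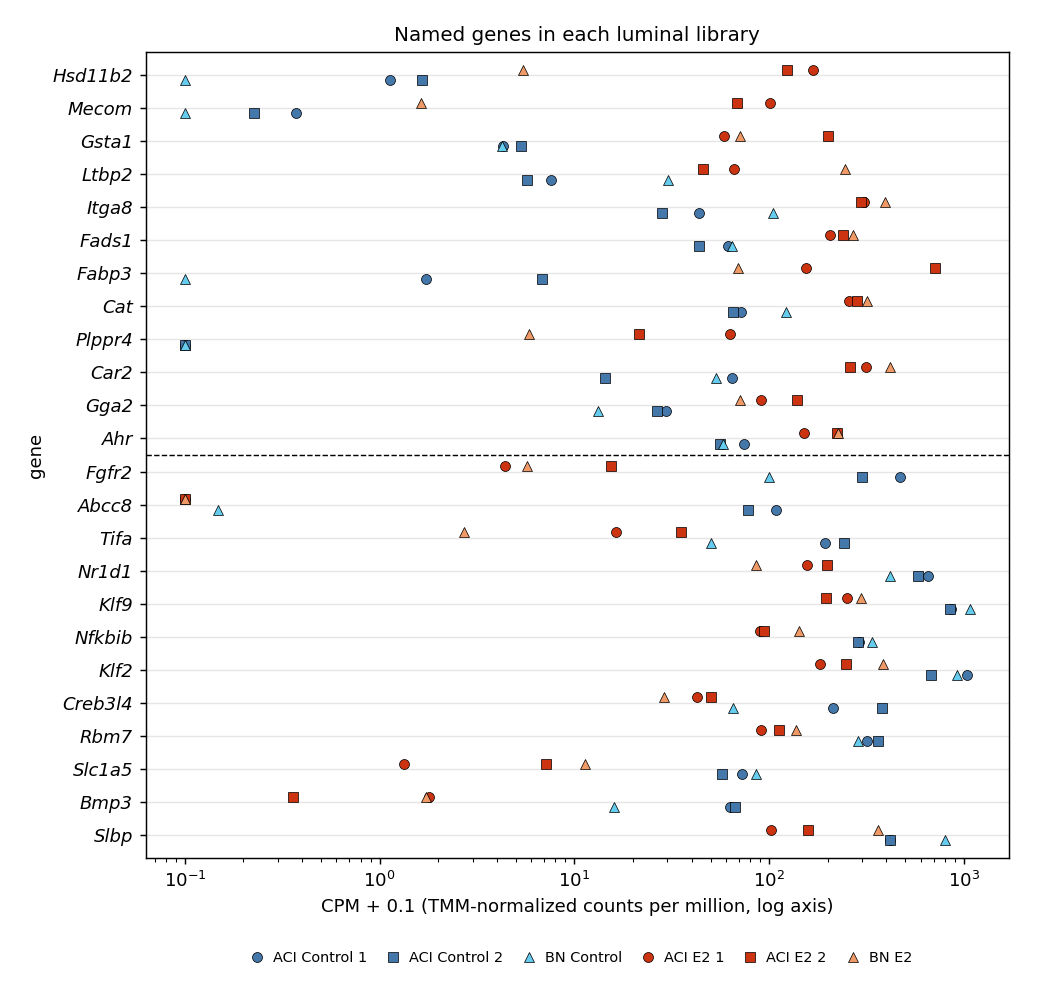
Levels of the 12 genes higher (above the dashed line) and the 12 lower with E2 in each luminal library, in CPM + 0.1 on a log axis; blue marks Control and red or orange E2, circles and squares the 2 ACI libraries and triangles BN. E2 and Control points do not overlap in any row, as the rule for choosing them requires, and *Hsd11b2* and *Mecom* lie lower in BN than in ACI under E2.

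Immediate early genes, transcription factors and phosphatases induced within minutes by growth factors or cell stress, had lower values with E2. All 21 members tested had a negative log2 difference (57.2% of all genes were lower), with a median of -1.33, and in 10 all E2 libraries lay below all Control libraries (5.9% of all genes). Without the first ACI E2 library, 11 of 21 did (8.5% of all genes) and the median was -0.96. In BN 19 of 21 were lower, and in ACI 15 of 21 had both E2 libraries below both Control libraries (26.3% of all genes). *Fos*, a subunit of the AP-1 factor, had 30390, 21240 and 29950 CPM in Control and 2993, 10490 and 7213 CPM in E2, a log2 difference of -2.14 ± 0.63 (SE, n = 3 and 3; edgeR adjusted p = 0.999). Even the highest E2 library had less than the lowest Control library. *Zfp36*, which destabilizes inflammatory mRNAs, had 4455 to 9233 CPM in Control and 1037 to 2940 CPM in E2, and *Dusp1*, a phosphatase of MAP kinases, had 11990 to 19140 against 3002 to 9018 CPM. The exceptions to separation included *Myc*, with 440 to 1146 CPM in Control and 378 to 1193 CPM in E2, and *Egr2*, which was 0.39 log2 units higher in ACI and 1.54 lower in BN. The list summed to 125000 to 153600 CPM in Control and 35070 to 84230 CPM in E2, with no overlap. In basal cells the median of the list was -0.64.

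**Figure D3:**
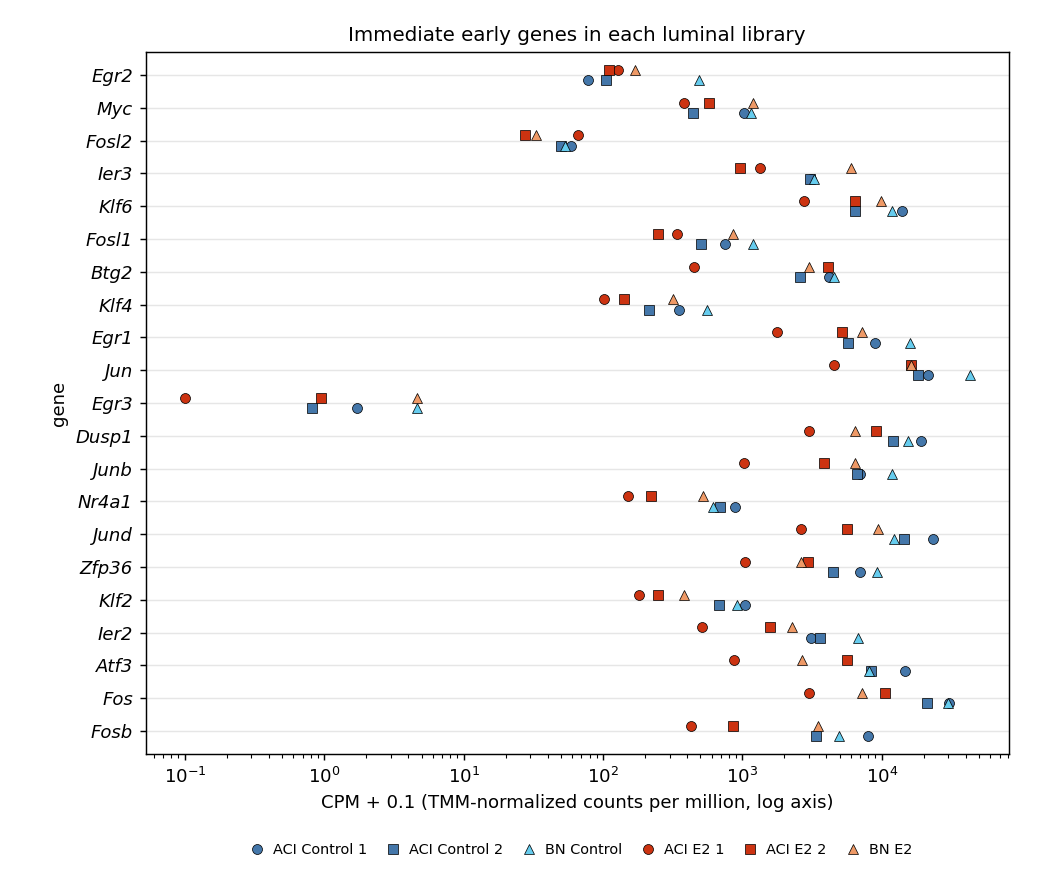
Levels of the 21 immediate early genes in each luminal library, in CPM + 0.1 on a log axis, ordered by log2 difference; blue marks Control and red or orange E2, circles and squares the 2 ACI libraries and triangles BN. E2 points lie left of Control in 10 rows, and the first ACI E2 library is the lowest in most rows.

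Markers of hormone-sensing luminal cells went opposite ways in the strains. In ACI, 14 of 18 genes tested had both E2 libraries below both Control libraries (26.3% of all genes), with a median log2 difference of -2.18. In BN, 14 of 18 were higher with E2 (51.5% of all genes), with a median of 1.98, and 11 of 18 did both (14.6% of all genes). *Esr1*, which encodes estrogen receptor alpha, had 29.4 and 18.9 CPM in ACI Control, 18.3 and 1.03 CPM in ACI E2, 0 CPM in BN Control and 4.25 CPM in BN E2. *Pgr*, the progesterone receptor and a classical estrogen target, had 149.5 and 67 CPM in ACI Control, 29 and 12.3 CPM in ACI E2, 0 CPM in BN Control and 3.83 CPM in BN E2. The ACI groups of both genes did not overlap, and the BN E2 library lay below both ACI Control libraries. The test of the difference between strains gave an edgeR p of 0.00228 for *Pgr* and 0.0428 for *Esr1* unadjusted, and 0.853 adjusted for both.

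Other members had the same shape. *Foxa1*, the factor that opens chromatin for the estrogen receptor, had 293 and 197 CPM in ACI Control and 70.2 and 10.2 CPM in ACI E2, and went from 5.59 CPM in BN Control to 50.4 CPM in BN E2. *Prlr*, the prolactin receptor, had 146 and 55.9 CPM in ACI Control, 0 and 4.38 CPM in ACI E2, and 0 and 16.7 CPM in BN Control and E2. The secreted signal *Wnt4* had 173 and 182 CPM in ACI Control, 0.0515 and 20.7 CPM in ACI E2, and 1.8 and 15 CPM in BN. *Areg*, the growth factor amphiregulin, had 284 and 224 CPM in ACI Control, 136 and 30.3 CPM in ACI E2, and 16.8 and 32.9 CPM in BN. *Tbx3*, *Cited4* and *Msx2* instead had lower values with E2 in both strains, and *Mboat1* was higher in ACI and not in BN. Rankl (*Tnfsf11*) did not pass the filter on low counts. The BN Control library had no counts for *Esr1*, *Pgr*, *Prlr* and *Cited1*, and the BN direction rests on that 1 library. Without the first ACI E2 library the median of the list over both strains was -0.14.

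**Figure D4:**
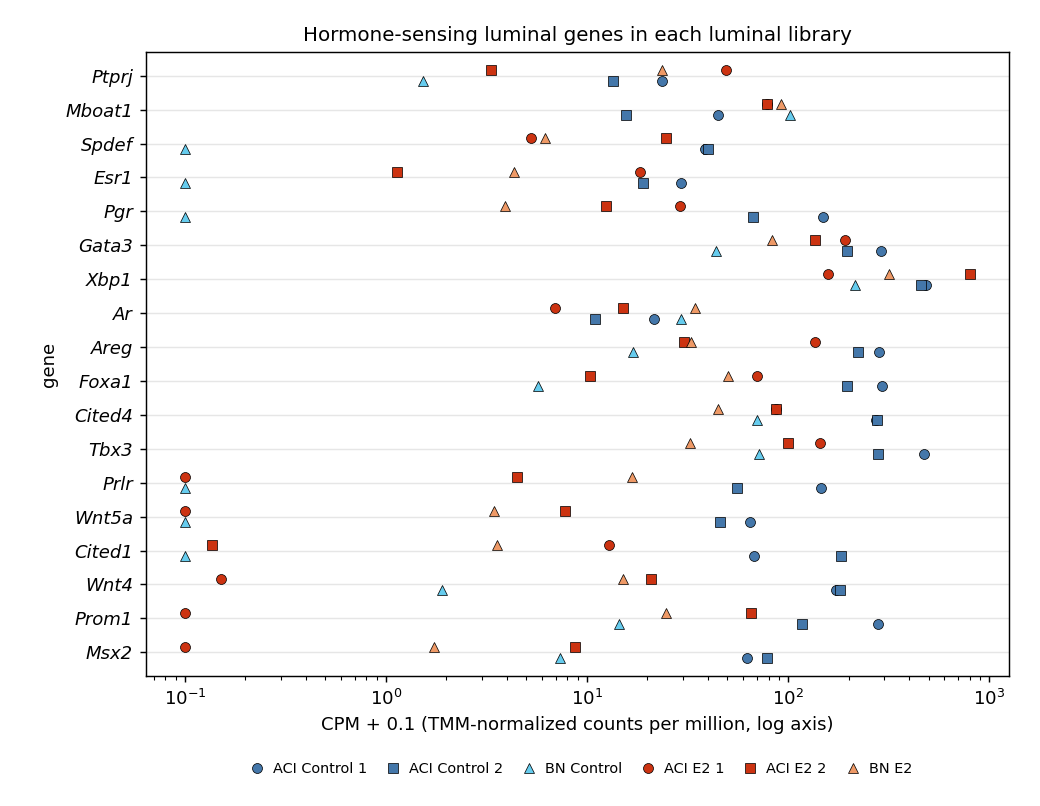
Levels of the 18 hormone-sensing luminal genes in each luminal library, in CPM + 0.1 on a log axis, ordered by log2 difference; blue marks Control and red or orange E2, circles and squares the 2 ACI libraries and triangles BN. The 2 ACI Control libraries lie farthest right in most rows, and the BN Control triangle lies left of the BN E2 triangle in 14 of 18.

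In ACI alone, 0 of 11114 genes (0%) were called by edgeR and 970 (8.73%) had an unadjusted p under 0.05, while DESeq2 called 315, 142 higher and 173 lower. Without the first ACI E2 library edgeR called 75 of 12036 genes (0.623%), 41 higher and 34 lower, with the single E2 library left assumed to vary like Control. Without the second, which leaves the library that stood apart, it called 3144, of which 2500 were lower. The 75 genes include *Csn2*, *Csn1s2a*, *Wap*, *Fabp3*, *Hsd11b2*, *Mecom* and *Gsta1* among the higher, and *Fgfr2*, *Bmp3*, *Foxa1* and *Cited1* among the lower.

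The direction of these genes was then read in the BN pair. Of the 75, 7 had no counts in BN, 28 went the same way in the BN pair and 40 the opposite way. The share with the same direction was 41.2%, near the 47.2% of all genes tested, and was 18 of 39 for genes higher in ACI and 10 of 29 for genes lower in ACI. *Csn2*, *Csn1s2a*, *Wap*, *Hsd11b2*, *Mecom* and *Fabp3* were among those with the same direction in BN. *Msln*, which encodes mesothelin, was among the opposite, with 14.6 and 8.4 CPM in ACI Control and 962 and 950.2 CPM in ACI E2, but 69.6 CPM in BN Control and 32.7 CPM in BN E2. *Enpep*, glutamyl aminopeptidase, had 6.91 and 10.4 CPM in ACI Control and 397 and 472 CPM in ACI E2, and 14.7 and 0 CPM in BN Control and E2. Both ACI E2 libraries were nearly alike in *Msln* and *Enpep*, including the one that stood apart. The keratin gene *Krt15* had 50.8 and 72.6 CPM in ACI Control and 673 and 2345 CPM in ACI E2, and 141 and 35.6 CPM in BN Control and E2. The sum of the basal markers was 1.18 log2 units higher with E2 in ACI and 2.43 lower in BN. In ACI the first E2 library, at 726 CPM, lay below the second Control library, at 844 CPM. Both ACI E2 libraries lay above both ACI Control libraries in 2 of the 14 basal markers (15.3% of all genes). Of the 14 basal markers 5 were higher with E2 in BN (51.5% of all genes). Their part in the strain difference was not tested.

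**Figure D5:**
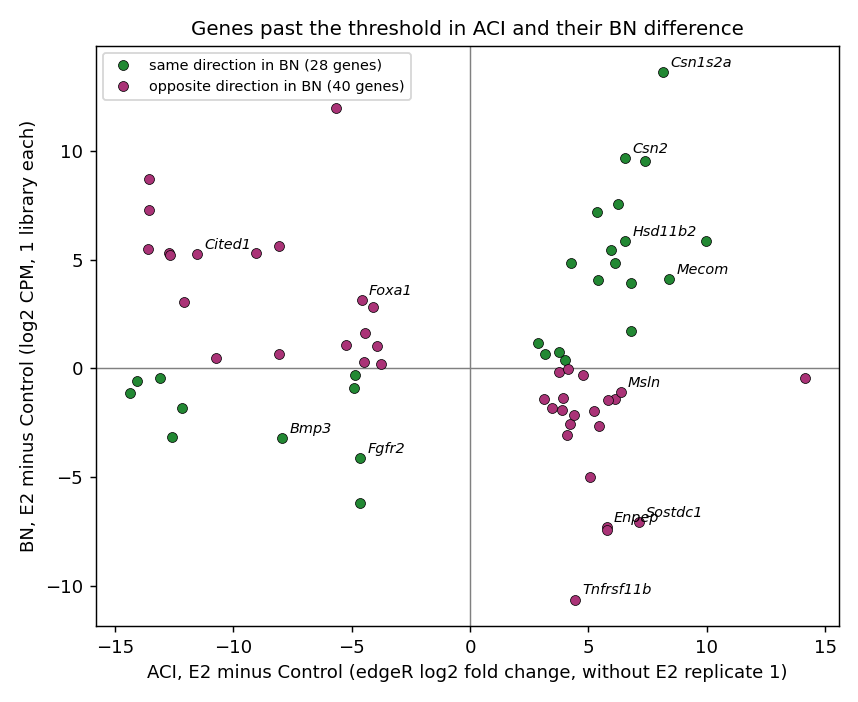
E2 effect in ACI (edgeR log2 fold change without the first ACI E2 library, x axis) and in BN (difference in log2 CPM of 1 library each, y axis) for the 68 of 75 genes called in ACI that had counts in BN. The 28 genes of the same direction include *Csn2*, *Csn1s2a* and *Fgfr2*, and the 40 of opposite direction include *Msln*, *Enpep* and *Foxa1*.

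The difference between BN and ACI in the E2 effect was tested over all 6 libraries, where the spread comes from the ACI libraries alone. edgeR called 0 of 12670 genes (0%), with 724 (5.71%) at an unadjusted p under 0.05, and DESeq2 called 473, with 219 more positive and 254 more negative in BN. The lowest p of genes more positive in BN belonged to *Lrpprc*, *Egr4* and *Glb1*, and of genes more positive in ACI to *Enpep*, *Tnfrsf11b* and *Msln*. *Lrpprc* and *Glb1* had 0 CPM in the single BN Control library and 52.1 and 46.7 CPM in BN E2. In ACI both were also higher with E2, by 2.20 and 0.89 log2 units. *Tnfrsf11b*, the decoy receptor of Rankl, had 5.28 and 3.05 CPM in ACI Control, 47.7 and 89.7 CPM in ACI E2, 151 CPM in BN Control and 0 CPM in BN E2. The immediate early gene *Egr4* had 98.1 and 134 CPM in ACI Control and 0 CPM in both ACI E2 libraries, and 107 and 49.5 CPM in BN. *Enpep* had the lowest p of the 6, at 3.69e-05 unadjusted and 0.468 adjusted by edgeR.

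Of 32 estrogen response genes 1 lay above (4.73% of all genes) and 2 below Control (5.9% of all genes) in all E2 libraries, which is near the background. The higher one was *C3*, a complement gene, with 21.1, 10.9 and 0.142 CPM in Control and 30.9, 128 and 106 CPM in E2. The lower ones were *Sgk1*, a kinase induced by steroid hormones, at 1492 to 2381 against 349 to 1071 CPM, and *Rasd1*. Of the prolactin and Stat5 genes (15 tested), 13 had a negative difference (57.2% of all genes), with a median of -0.50 in ACI and 0.25 in BN, where 9 of 15 were higher with E2 (51.5% of all genes). The feedback inhibitor *Socs3* was the separated member, at 257 to 650 CPM in Control and 145 to 226 CPM in E2. In the EGF family (14 tested) *Egfr* was higher, at 6.77 to 31.1 CPM in Control and 33.8 to 96.7 CPM in E2. The IGF axis (15 tested) and the luminal progenitor markers (15 tested) had no separated member, and of the Wnt and Rank genes (18 tested) *Axin2*, a target of Wnt signaling, was lower at 3.41 to 5.56 against 2.32 to 2.78 CPM.

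Metabolic and stress lists were mixed, and their counts stand against 4.73% of all genes separated upward and 5.9% downward. Of 32 fatty acid and cholesterol synthesis genes, 2 were separated upward, *Fads1* and *Me1*, and 3 downward, with *Insig1* and *Cyp51* among them. *Insig1*, which holds back sterol synthesis, had 687, 255 and 295 CPM in Control and 77.1, 130.2 and 205 CPM in E2. In ACI 14 of the 32 had both E2 libraries below both Control libraries (26.3% of all genes), and in BN 17 were higher with E2 (51.5% of all genes). Of 24 interferon-stimulated genes 5 were separated downward (5.9% of all genes), which were *Isg15*, *Oasl*, *Irf1*, *Ifih1* and *Ddx58*, and 1 upward (4.73% of all genes), *Psmb8*. *Isg15*, a ubiquitin-like protein, had 104, 82.4 and 275 CPM in Control and 57.1, 26.4 and 26 CPM in E2. The median of this list was -1.85 in BN and -0.04 in ACI. In the secretory stress list (22 tested) *Asns* was separated upward and *Atf4*, *Dnajb9* and *Herpud1* downward. Of 18 mucosal defence genes *C3* was separated, and of 15 heat shock genes none was. Over all lists, 49 of 435 distinct genes were separated (11.3%), against 10.6% of all genes.

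Proliferation genes were mixed as well. Of 36 S phase genes 22 had a positive difference (42.8% of all genes). Their median was -0.35 in ACI and 0.07 in BN, against -0.46 and 0.06 over all genes. Separated were 3 (10.6% of all genes), *Ubr7* and *Usp1* upward and *Slbp*, the histone mRNA binding protein, downward. Of 48 G2 and M phase genes 22 had a positive difference (42.8% of all genes), with a median of -0.02. *Hmmr*, *Cdca8* and *Tmpo* were separated upward (4.73% of all genes) and *Smc4* downward (5.9% of all genes). *Hmmr*, a spindle protein, had no counts in Control and 10.2, 0.147 and 8.51 CPM in E2. In ACI, 14 of 48 G2 and M phase genes had both E2 libraries above both Control libraries (15.3% of all genes) and 9 had both below (26.3% of all genes), with a median of -0.41. Without the first ACI E2 library 3 of 48 were separated upward over both strains (11.7% of all genes) and 3 of 48 downward (8.5% of all genes). Of the S phase genes 7 of 36 (19.4%) were then separated upward and 1 of 36 (2.78%) downward. The transcript of *Cdkn1b*, the cell cycle inhibitor p27, had 15.9, 9.57 and 9.47 CPM in Control and 11.7, 14.9 and 12.3 CPM in E2, a log2 difference of 0.19 ± 0.28 (SE, n = 3 and 3; edgeR adjusted p = 0.999). None of the 18 CDK inhibitors and G1 cyclins tested was separated.

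The E2 effect was then read over the genes that differ in luminal progenitors of *Cdkn1b*-/- rats, which are rats of 9 weeks sequenced in other libraries. According to the paper, the deletion arose in Sprague-Dawley rats and was bred onto ACI, and glands for sorting came from early and late backcross generations. The rats of the E2 experiment instead received implants at 9 weeks. In these progenitors edgeR called 436 of 12809 genes (3.4%), 271 higher and 165 lower in *Cdkn1b*-/-. Of the higher genes 262 were tested here, and 161 (61.5%) were higher with E2, against 42.8% of all genes. In 33 (12.6%) all E2 libraries lay above all Control libraries, against 4.73% of all genes, and in 3 below. Of the lower genes 158 were tested, and 16 (10.1%) were separated downward, against 5.9% of all genes, and 4 upward. Medians were 0.38 for the higher genes (0.28 in ACI, 0.56 in BN) and -0.91 for the lower genes (-1.55 in ACI, 0 in BN). Without the first ACI E2 library, 66 of 262 (25.2%, all genes 11.7%) were separated upward and 23 of 158 (14.6%, all genes 8.5%) downward.

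Named after their values were seen, the separated genes with the lowest p in each set were *Gsta1*, *Ctsh* and *Me1* among the higher and *Fgfr2*, *Plppr4* and *Klf2* among the lower. *Ctsh*, a lysosomal protease, had 209, 147 and 278 CPM in Control and 403, 530.2 and 681 CPM in E2, and its log2 difference in *Cdkn1b*-/- progenitors was 1.34. *Me1*, malic enzyme, which supplies NADPH to fatty acid synthesis, had 117, 75.7 and 98.9 CPM in Control and 159, 256 and 473 CPM in E2, and was 1.36 higher in *Cdkn1b*-/- progenitors. *Fgfr2* was 2.04 log2 units lower there (adjusted p = 0.00661 by edgeR). *Plppr4* went against its set, lower in *Cdkn1b*-/- progenitors and higher with E2. *Wap* was higher in *Cdkn1b*-/- progenitors by 3.97, and *Foxa1* and *Prlr* were lower by 1.34 and 1.19.

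To set the luminal response beside that of basal cells, the difference was tested over all 12 libraries. The number in the title, which a luminal and a basal library share, was taken as a block, although the labels do not say that it marks a rat. edgeR called 0 of 13335 genes (0%), with 242 (1.81%) at an unadjusted p under 0.05, and DESeq2 called 158, 116 more positive and 42 more negative in luminal cells. The lowest p belonged to *Cst3*, *Nt5e* and *Calml3* (more positive in luminal cells) and to *Il23a*, *Cpxm1* and *Odam* (more negative). *Cst3*, the protease inhibitor cystatin C, had 87.5, 123 and 360 CPM in luminal Control and 822, 618 and 261 CPM in luminal E2, a log2 difference of 1.70, and of -0.76 in basal cells. BN went against ACI in luminal cells. Of the genes described above, *Csn2* was 5.44 log2 units higher in basal E2 libraries than in basal Control libraries, *Csn1s2a* 8.56, *Glycam1* 7.69 and *Wap* 5.78. *Fgfr2* was -3.46. *Hsd11b2* was 0.40 and *Mecom* -0.68 in basal cells, with an edgeR p of the difference of 0.0326 and 0.0388 unadjusted.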

How the data were processed

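RNA of sorted luminal cells was sequenced in 3 E2 and 3 Control libraries (ACI 2 and 2, BN 1 and 1). According to the methods and the submitters' processing notes, the authors made SMARTer low-input libraries, aligned single-end reads to rn6 with STAR 2.5.1b and counted them on refGene with htseq-count; the deposited counts are not normalized. The use of strand in counting is not given in the sources used here, so overlapping genes cannot be told apart. Reads that htseq-count did not assign (56.8% to 74.7% per library) were left out. Depth was 13659389 to 25280421 counts.

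Counts were filtered with edgeR's filterByExpr by strain and treatment, scaled by TMM and tested with edgeR 4.0.16 (quasi-likelihood, strain as a term, Benjamini-Hochberg, threshold 0.05) in R 4.3.3, with limma 3.58.1 and DESeq2 1.42.0 as alternatives. Log2 differences use log2 CPM with a prior count of 2, which understates the difference of genes near 0, and SE come from the linear fit with strain. Libraries were called separated when the ranges of E2 and Control did not overlap. ACI libraries of one group differed beyond counting noise, so none was taken as a duplicate. Fits were checked on simulated counts with a dispersion far below the 1.44 of the real luminal libraries. That check cannot tell how many changes the fits miss at the real spread.

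Genes named are, per direction, the 12 with the largest change at an adjusted p under 0.05, filled with those of lowest p among genes with mean log2 CPM above 2, separated groups and one direction in both strains; the 4 members of each of the 26 lists with the lowest p; *Cdkn1b*, *Esr1* and *Pgr*; and 3 genes per direction for each test of a difference. Other genes were named as separated members of a list or after their values were seen. Members and lists were chosen with earlier results of these data known. One gene of a list is not reported here. Promoters come from RefSeq tables of GRCr8, another build than the counts.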

Additional observations from a re-analysis of the deposited data

Results flagged for a closer look

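The summed levels of 9 of 26 gene lists moved in opposite directions in the strains, with both ACI E2 libraries on one side of both ACI Control libraries and the BN E2 library on the other side of the BN Control library. These differences were not tested, and each rests on 1 BN library per treatment. The sums used CPM without TMM factors, which ran from 0.753 in the BN E2 library to 1.42 in the first ACI E2 library. Which lists are flagged can depend on this scaling. In 5 lists ACI was lower and BN higher with E2, and the difference between strains, BN minus ACI in log2 of the sum, was 0.722 for estrogen response, 1.17 for hormone-sensing luminal genes, 1.71 for the EGF family, 1.79 for fatty acid and cholesterol synthesis and 0.617 for secretory stress. The hormone-sensing genes summed to 2816 and 2731 CPM in ACI Control, 1403 and 1589 CPM in ACI E2, 489 CPM in BN Control and 594 CPM in BN E2. In 4 lists ACI was higher and BN lower, with differences of -1.17 for luminal progenitor markers, -2.73 for Wnt and Rank genes, -2.42 for interferon-stimulated genes and -0.986 for Schwann cell markers. By CPM with TMM factors, 8 of 10 Schwann cell markers tested were higher with E2 in BN, against the direction of their sum. Lower values in BN were found in 7 of 15 luminal progenitor, 8 of 18 Wnt and Rank and 18 of 24 interferon-stimulated genes.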

How the results depend on the processing

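The counts of 0 by edgeR held under RLE normalization, no filter on low counts and a log2 limit of 1 where tried, and for the joint E2 effect also without a strain term, with all 12 libraries, with either alternative added after seeing the data (voom weights, robust dispersion) and without each library. DESeq2 called 131 genes for E2, 315 in ACI, 473 between strains and 158 between cell types. Leaving out 1 ACI library gave 0 to 3144 calls in ACI. Separated list genes numbered 66 to 111 when 1 library was left out, since fewer libraries separate more easily. The median of genes lower in *Cdkn1b*-/- progenitors ranged from -1.56 to -0.518, with -1.55 and -1.56 without a BN library.

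Direction turned in 8 of the 97 named genes other than cell type markers, none of them called by edgeR over all 6 libraries; the cause was not tested. By DESeq2 the log2 difference was -4.75 for *Igfbp1*, -0.67 for *Pgr* and 2.56 for *Tnfrsf11b*, and of the markers it turned to 0.473 for *Lck*, -2.96 for *Cd79b* and 0.435 for *Hbb*. With 1 library left out it ranged from -0.461 to 3.31 for *Igf1*, -1.97 to 1.91 for *Igfbp1*, -0.589 to 0.929 for *Hspe1*, -0.00859 to 0.423 for *Cdkn1b*, -2.38 to 2.13 for *Esr1*, -2.4 to 1.29 for *Pgr*, -0.0844 to 5.66 for *Enpep* and -2.52 to 4 for *Tnfrsf11b*. The luminal and basal comparison without the replicate block called 0 genes, with 417 at an unadjusted p under 0.05. With a replicate block in the genotype fit, 406 and 265 progenitor genes were called, and their medians here were 0.317 and -0.997; libraries of equal number did not deviate together between genotypes (r = -0.3 to 0.0014 over genes, 4 populations). In the first ACI E2 library 3724 of 12670 tested genes had no counts, and not all of these genes were low elsewhere. *Aqp3* and *Cldn8* had 0 CPM there and 175 and 142 CPM in the second ACI E2 library. The cause was not tested. BN values rest on 1 library per treatment.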

Other observations

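Genes of the circadian clock were looked at after *Nr1d1* was seen, so their values are a description without a test. Of 14 tested (18 listed), 12 had a negative log2 difference with E2 (57.2% of all genes), with a median of -0.82. In ACI 10 of 14 had both E2 libraries below both Control libraries (26.3% of all genes), while in BN 8 of 14 were higher with E2 (51.5% of all genes), and 5 of 14 (*Per1*, *Per2*, *Arntl*, *Ciart* and *Nr1d2*) did both (14.6% of all genes). *Per2*, a repressor of the clock, had 293 and 235 CPM in ACI Control, 86.8 and 53.5 CPM in ACI E2, and 81.5 and 115 CPM in BN Control and E2. In 4 all E2 libraries lay below all Control libraries (5.9% of all genes). *Cry1*, another repressor, had 180, 142 and 144 CPM in the 2 ACI and the BN Control library and 57.1, 36.2 and 91.6 CPM in E2, and its relative *Cry2* had 283, 296 and 279 CPM against 183, 61.9 and 65.6 CPM. *Bhlhe40*, also a repressor, had 734 to 789 CPM in Control and 143 to 642 CPM in E2. *Dbp*, an output gene of the clock, was higher with E2 in ACI and lower in BN, with 13.6 and 12.6 CPM in ACI Control, 28.3 and 30.5 CPM in ACI E2, and 22.2 and 5.36 CPM in BN. The labels give no time of day at which glands were taken.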
